A study of Homo sapiens with 5 samples.

Results

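The AKR1C reductases and a group of NRF2 target genes were followed as 10 genes, AKR1C1, AKR1C2, AKR1C3, AKR1B10, NQO1, GCLM, GCLC, TXNRD1, HMOX1 and SRXN1, across 5 Affymetrix arrays of MIAPaCa2, an established cell line from poorly differentiated pancreatic ductal adenocarcinoma (PDAC) without α2 integrin of its own. All probe sets that the platform annotation gives to these genes alone were taken, 23 of the 54613 probe sets and 10 of the 19775 named genes. The genes were chosen from earlier results of these same arrays, so that the values below are descriptions. Each population was a stable transfectant kept under drug selection and had 1 array. MP2-α2/CI cells expressed α2 from a cytomegalovirus promoter and were kept on plates coated with collagenI at 25 μg/mL. MP2-α2/TC cells came from the same transfection and panning and were kept on uncoated tissue culture plastic. MP2-α2Δ cells expressed α2 without its cytoplasmic domain, also on collagenI. MP2-α9α2 cells expressed a chimera of the α9 ectodomain and transmembrane domain with the α2 cytoplasmic domain, and were kept on the tenascin FNIII fragment at 10 μg/mL. MP2-mock cells were the control population without an added integrin. The α2 and α2Δ populations were selected with zeocin and MP2-α9α2 with G418, so that construct, substrate and drug cannot be told apart in several of the comparisons.

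NRF2, encoded by NFE2L2, is the transcription factor of the electrophile and oxidant response. KEAP1 holds it for degradation in unstressed cells, and on release it pairs with small MAF proteins at antioxidant response elements (AREs) near its targets. The targets make and use glutathione and thioredoxin, reduce quinones and carbonyls, and degrade heme. The AKR1C enzymes are NADPH-dependent reductases of steroids, prostaglandins and carbonyls, encoded by neighbouring and closely similar genes. They are among the most strongly NRF2-responsive genes in human cells, but also answer to other regulators.

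The sequence before the start of the AKR1C genes is shown to describe how alike these neighbouring genes are there. It was not checked against the transcript models, and the AKR1C3 window shown lies downstream of the other AKR1C3 start. Nothing is drawn from the sequence on which RNA the probe sets read. The 100 bases before the start of each gene (RefSeq, GRCh38.p14) are written in the direction of the gene, with capitals for the longest run shared with AKR1C1, or, for AKR1C1, with AKR1C2. They lie at chr10:4963315-4963414 on the plus strand for AKR1C1, at chr10:5003858-5003957 on the minus strand for AKR1C2 and, for 1 of the 2 AKR1C3 windows, at chr10:5094314-5094413 on the plus strand.
AKR1C1: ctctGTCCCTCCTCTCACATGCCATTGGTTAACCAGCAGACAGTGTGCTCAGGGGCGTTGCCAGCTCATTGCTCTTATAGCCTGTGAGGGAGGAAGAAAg
AKR1C2: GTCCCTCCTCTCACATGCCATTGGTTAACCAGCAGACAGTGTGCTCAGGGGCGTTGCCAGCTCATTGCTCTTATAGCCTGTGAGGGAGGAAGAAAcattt
AKR1C3: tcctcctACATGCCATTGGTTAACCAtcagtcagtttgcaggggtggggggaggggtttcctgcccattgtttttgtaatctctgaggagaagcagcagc

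AKR1C1 and AKR1C2 shared an unbroken run of 95 bases there, against 19 bases between this AKR1C3 window and AKR1C1. Over the 250 bases before the start, aligned end to end, AKR1C1 and AKR1C2 were 96.5% identical and AKR1C1 and this AKR1C3 window 69.2%. Promoter windows from 250 bases before to 50 after the start were held for 8 member genes, in 10 windows. HMOX1 and AKR1B10 had no entry. The core of the ARE, TGACNNNGC, was searched on both strands. It was found in 3 of the 10 windows, those of GCLM and TXNRD1, and in 13.3% of all 35116 windows. The site of GCLM and the sites of TXNRD1 farthest from its starts are shown with the match in capitals. They lie at chr1:93909446-93909474 for GCLM, on the minus strand, and at chr12:104215670-104215698 and chr12:104286920-104286948 for TXNRD1, on the plus strand.
GCLM: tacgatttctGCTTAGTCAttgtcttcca
TXNRD1: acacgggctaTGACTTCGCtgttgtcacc
TXNRD1: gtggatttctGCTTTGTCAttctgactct

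The element of AP-1, TGANTCA, was in none of the 10 windows and in 7.71% of all windows. The core of the element bound by the aryl hydrocarbon receptor, GCGTG, was in 5 of the 10 windows and in 36.5% of all windows. A match is a description of the letters in these windows only, and NRF2 elements can lie outside them.

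The deposited values, 1 for each probe set on an array, were normalized by the authors and were read as log2 from their range. The arrays of MP2-α2/CI, MP2-α2/TC and MP2-mock cells shared the minimum of 2.24, and those of MP2-α2Δ and MP2-α9α2 cells shared 2.21, so these were taken as 2 sets normalized apart. Background on each array, the floor, was set at the 95th percentile of the 107 odorant receptor probe sets and lay at 2.21 to 2.27. Lower values were raised to it, and a probe set was counted as apart at 2-fold, or 1 on the log2 scale. With 1 array per population no difference had a replicate check. In these bulk samples, fewer cells with a transcript and less of it per cell cannot be told apart. Of the epithelial markers, KRT8, KRT18 and KRT19 read 11.74 to 15.22, while EPCAM, CDH1 and KRT7 read no higher than 2.37, and MUC1 and SOX9 read 6.01 to 13.29. Of the mesenchymal markers, VIM and ZEB1 read 10.12 to 15.85, while CDH2 read no higher than 2.31. Among markers of other cell types, those of leukocytes and endothelium read no higher than 3.38, and CPA1, of acinar cells, read the minimum. Of the fibroblast markers, COL1A2 read 11.97 to 13.08 and COL1A1 7.18 to 8.11. DCN and LUM read the minimum, and PDGFRB at most 2.24. ITGA2, the gene of α2, read 7.28 in MP2-α2Δ cells and the minimum on the other arrays. The study states that the transgene lacks the 3' sequence the probes read, so the minimum on both α2 arrays checks no label, and the source of the value in MP2-α2Δ cells was not tested.

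Of the 23 member probe sets, 15 lay above the floor on all 5 arrays, 7 lay at or below it on all 5, and 1, of AKR1C3, lay just above it on 2 arrays. The 15 came from 8 genes. AKR1B10, a reductase of retinal and other aldehydes, was at the minimum on every array by its 1 probe set. AKR1C3, the 17-ketosteroid and prostaglandin reductase of the family, read 2.24 in MP2-α2/CI, 2.24 in MP2-α2/TC, 2.24 in MP2-α2Δ, 2.31 in MP2-α9α2 and 2.24 in MP2-mock cells. The AKR1C genes had 9 probe sets, of which the 4 above the floor all carried the _x_at suffix, given to probes that may also bind transcripts of close relatives. The 5 others read no higher than 2.31 on any array. Values below stand under the annotated gene of each probe set, and AKR1C1 and AKR1C2 cannot be told apart by them. A further probe set annotated to both AKR1C1 and AKR1C2 was not a member and read at most 2.53.

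AKR1C1 and AKR1C2 were lower in α2 cells kept on collagenI than in either α2 cells on plastic or mock cells. By its first probe set (204151_x_at), AKR1C1 read 10.52 in MP2-α2/CI, 12.52 in MP2-α2/TC and 12.91 in MP2-mock cells. By the second (216594_x_at) it read 9.58, 11.51 and 11.87 in the same order. AKR1C1 encodes the 20-alpha-hydroxysteroid dehydrogenase that inactivates progesterone. AKR1C2, the 3-alpha-hydroxysteroid dehydrogenase that inactivates dihydrotestosterone, read 8.49 in MP2-α2/CI, 10.48 in MP2-α2/TC and 10.83 in MP2-mock cells by 209699_x_at. By 211653_x_at it read 8.36, 10.44 and 10.81. All 4 probe sets thus ran in one order, with MP2-α2/CI far below the other two arrays and MP2-α2/TC a little below MP2-mock.

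For MP2-α2/CI over MP2-mock, the log2 differences of the 4 probe sets lay between -2.44 and -2.29, with a median of -2.36, which is 5.15-fold lower. For MP2-α2/CI over MP2-α2/TC they lay between -2.08 and -1.93, or 3.98-fold lower at the median. For MP2-α2/TC over MP2-mock they lay between -0.40 and -0.35, or 1.29-fold lower. The larger part of the difference from MP2-mock was therefore between the collagenI and plastic arrays of α2 cells from the same panning. The study reports higher α2 levels in MP2-α2/CI than in MP2-α2/TC cells, so substrate and α2 level cannot be told apart here. Counted from the lowest, they held places 13 to 16 among 29696 probe sets for MP2-α2/CI over MP2-mock and places 7 to 10 among 29810 for MP2-α2/CI over MP2-α2/TC. Because the probe sets can read the same transcripts, they are not 4 separate measurements.

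Of the 15 member probe sets measured, these 4 were at least 2-fold lower for MP2-α2/CI over MP2-mock, against 0.256% of all probe sets, and none was higher, against 0.236%. The same 4 were at least 2-fold lower for MP2-α2/CI over MP2-α2/TC, against 0.104% of all, and none was higher, against 0.0335%. Between MP2-α2/TC and MP2-mock cells none of the 15 was 2-fold apart, where 0.214% of all probe sets were higher and 0.248% lower. These 3 comparisons share arrays and are not independent of each other. The median difference of all probe sets was 0 in each.

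**Figure D1:**
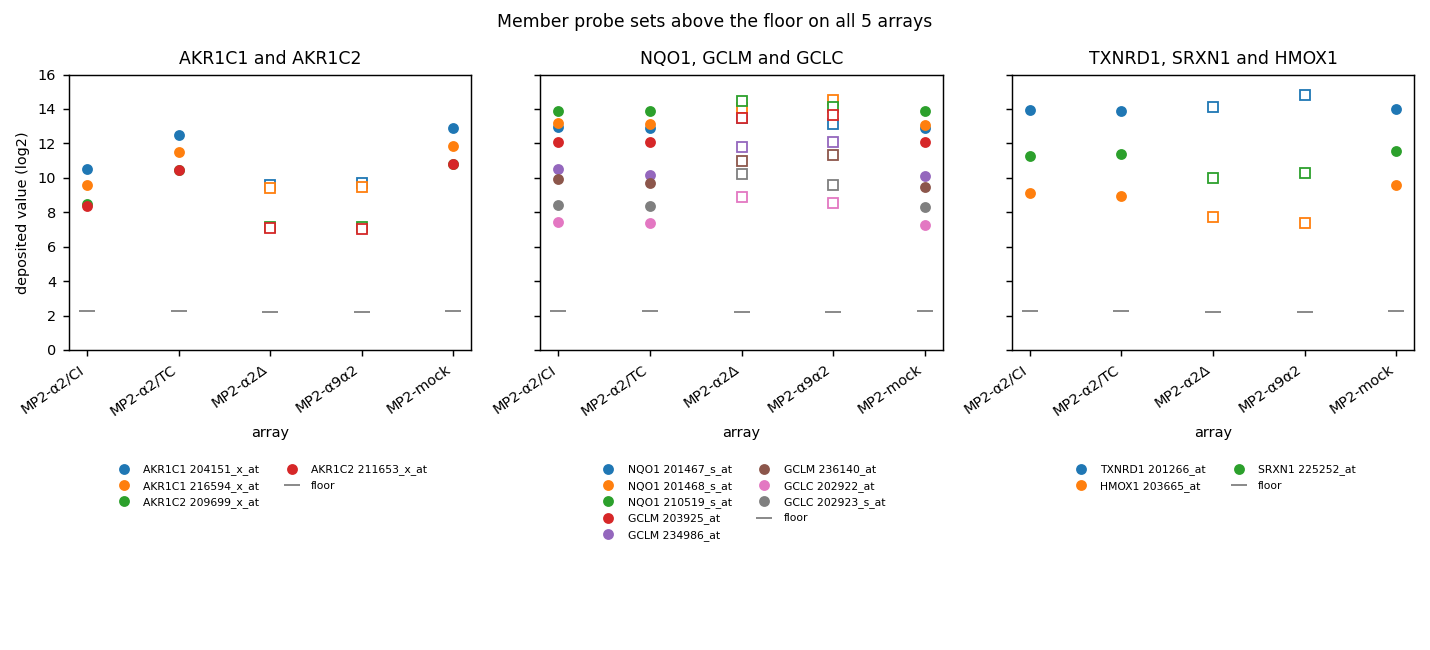
Deposited log2 values (y axis) of the 15 member probe sets above the floor, by array (x axis), drawn singly, filled circles and open squares for the 2 sets taken as normalized apart, grey bars for the floor. The 4 AKR1C probe sets read 8.36 to 10.52 in MP2-α2/CI and 10.81 to 12.91 in MP2-mock cells.

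The other member genes differed by less than 2-fold between these 3 arrays. Their 11 probe sets lay between -0.51 and 0.47 for MP2-α2/CI over MP2-mock, between -0.09 and 0.34 for MP2-α2/CI over MP2-α2/TC and between -0.64 and 0.20 for MP2-α2/TC over MP2-mock, with none 2-fold apart. Their medians were 0.06, 0.07 and 0.00.

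NQO1, the 2-electron quinone reductase often used as an index of NRF2 activity, read 13.89 on all 3 of these arrays by its brightest probe set. This value was identical on the 3 arrays within 1e-06, as were those of 36.4% of the 27320 probe sets that all 5 arrays read above the floor. By the other NQO1 probe sets it read 12.97 in MP2-α2/CI, 12.88 in MP2-α2/TC and 12.91 in MP2-mock cells, and 13.20, 13.14 and 13.06. NQO1 thus differed by at most 0.14 from MP2-mock.

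GCLM and GCLC are the modifier and catalytic subunits of glutamate-cysteine ligase, the rate-limiting enzyme of glutathione synthesis. GCLM read 12.09 in MP2-α2/CI, 12.06 in MP2-α2/TC and 12.06 in MP2-mock cells by its brightest probe set (203925_at). By its other probe sets it read 10.50, 10.15 and 10.11, and 9.95, 9.69 and 9.49. For MP2-α2/CI over MP2-mock the last 2 differed by 0.38 and 0.47, the largest positive differences among the members, and the first by 0.03, so that the probe sets of GCLM differed from each other. GCLC read 8.40 in MP2-α2/CI, 8.34 in MP2-α2/TC and 8.30 in MP2-mock cells by its brightest probe set, and 7.42, 7.35 and 7.26 by another.

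TXNRD1, the cytosolic thioredoxin reductase, read 13.95 in MP2-α2/CI, 13.88 in MP2-α2/TC and 14.00 in MP2-mock cells. SRXN1, sulfiredoxin, which restores over-oxidized peroxiredoxins, read 11.29 in MP2-α2/CI, 11.38 in MP2-α2/TC and 11.55 in MP2-mock cells. HMOX1, the inducible heme oxygenase, read 9.09 in MP2-α2/CI, 8.97 in MP2-α2/TC and 9.61 in MP2-mock cells. HMOX1 and SRXN1 were thus lower on both α2 arrays than on the MP2-mock array, by log2 differences of -0.51 and -0.27 in MP2-α2/CI and of -0.64 and -0.17 in MP2-α2/TC cells. Each has 1 probe set, and none of these reached 2-fold. HMOX1 was the member furthest below MP2-mock in MP2-α2/TC cells, at place 157 from the lowest among 29885 probe sets, where the AKR1C probe sets held places 413 to 523. Unlike AKR1C1 and AKR1C2, its value on collagenI was slightly above that on plastic, by 0.12.

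**Figure D2:**
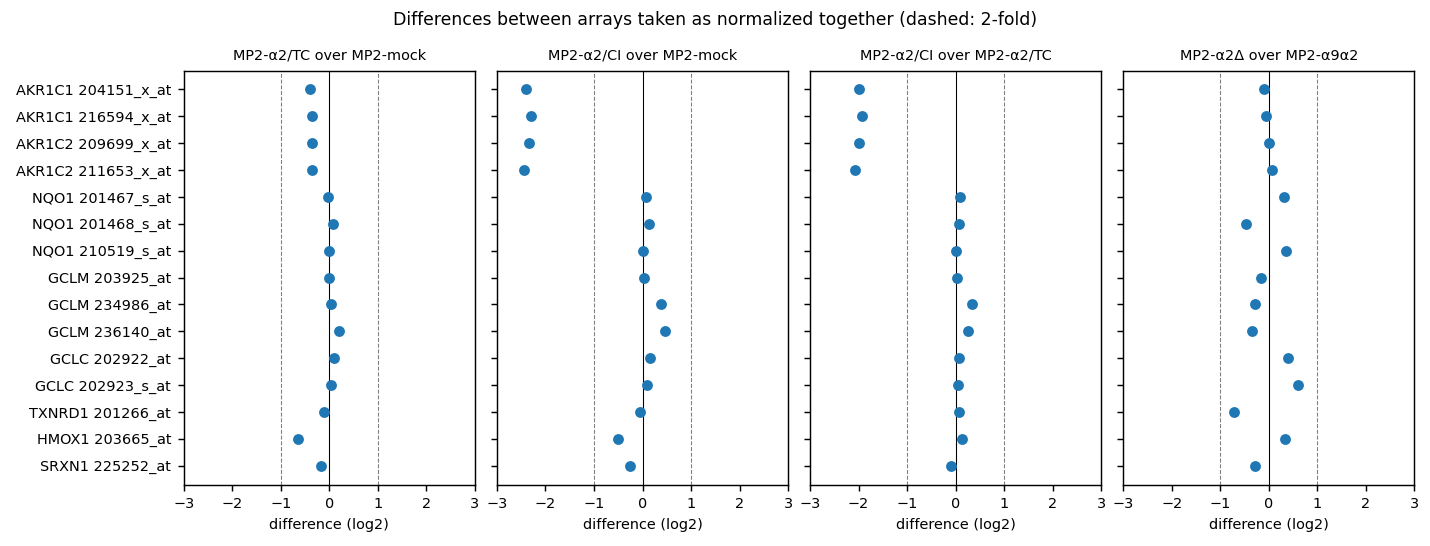
Log2 differences (x axis) of the 15 member probe sets (rows) in the 4 comparisons between arrays with a common minimum, with dashed lines at 2-fold. The 4 AKR1C probe sets lie between -2.44 and -2.29 for MP2-α2/CI over MP2-mock, and no point is 2-fold apart for MP2-α2Δ over MP2-α9α2.

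Between the 2 altered constructs, α2Δ in MP2-α2Δ and α9α2 in MP2-α9α2 cells, no member was 2-fold apart. By 204151_x_at, AKR1C1 read 9.59 with α2Δ and 9.68 with α9α2, and by 216594_x_at 9.42 and 9.48. AKR1C2 read 7.17 in both by 209699_x_at, an identical value as for 24.5% of the 27320 probe sets, and 7.08 and 7.03 by 211653_x_at. The 4 AKR1C differences lay between -0.09 and 0.06. Construct, substrate and selection drug all differ between these arrays.

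The members with larger differences between the constructs went in both directions. TXNRD1 read 14.12 with α2Δ and 14.84 with α9α2, a log2 difference of -0.72. GCLC read 10.21 with α2Δ and 9.60 with α9α2, a difference of 0.61, and of 0.40 by its other probe set. GCLM was lower in MP2-α2Δ cells by all 3 of its probe sets, with differences between -0.34 and -0.17, so that the 2 subunits of the ligase ran in opposite directions. The probe sets of NQO1 did not agree, with differences of 0.36, 0.32 and -0.47. HMOX1 read 7.71 with α2Δ and 7.38 with α9α2, and SRXN1 10.00 and 10.29. None of 16 measured member probe sets was 2-fold apart, beside 7.56% of the whole array that was higher by this measure in MP2-α2Δ cells and 4.95% that was lower.

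Levels of MP2-α2Δ and MP2-α9α2 against MP2-mock cells were set across arrays normalized apart. Over the 27320 probe sets that every array read above its floor, the median shift from MP2-mock was 0.53 (MP2-α2Δ) and 0.54 (MP2-α9α2), and the member differences are read beside it. Normalization set and construct cannot be told apart here. AKR1C1 and AKR1C2 were far below MP2-mock in both populations, by log2 differences of -3.72 to -2.45 with α2Δ and of -3.78 to -2.39 with α9α2. The AKR1C1 probe sets read 9.59 and 9.42 in MP2-α2Δ cells, against 12.91 and 11.87 in MP2-mock cells, so that their spacing was not constant. HMOX1 differed from MP2-mock, at 9.61, by -1.90 with α2Δ and by -2.23 with α9α2. SRXN1 differed from MP2-mock, at 11.55, by -1.56 and -1.27 in the same order. The AKR1C probe sets, HMOX1 and SRXN1 thus ran against the upward shift of all probe sets.

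The glutathione genes lay on the other side. GCLM was above MP2-mock by 1.43 to 1.68 with α2Δ and by 1.59 to 1.97 with α9α2, over its 3 probe sets. GCLC was above MP2-mock by 1.91 and 1.65 in MP2-α2Δ and by 1.30 and 1.25 in MP2-α9α2 cells. The 3 probe sets of NQO1 differed from each other here. Their differences from MP2-mock were 0.57, 0.55 and 0.97 with α2Δ, and 0.21, 0.23 and 1.43 with α9α2, where the last (201468_s_at) was at least 2-fold higher. TXNRD1 was above by 0.13 and 0.84 in the same order of populations. In MP2-α2Δ cells 5 of 16 measured member probe sets were at least 2-fold higher, where 30.2% of all probe sets were, and 6 were lower, where 6.77% were. In MP2-α9α2 cells 6 were higher (31.7% of all) and 6 lower (9.52% of all). The share of members that was higher was thus near that of all probe sets.

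Scaling moved the number of members that were higher, while the lower ones were lower under all 3 scalings. With each array centred on its median, AKR1C1 and AKR1C2 differed from MP2-mock by -4.56 to -3.29 with α2Δ and by -4.58 to -3.19 with α9α2, HMOX1 by -2.74 and -3.03, and SRXN1 by -2.40 and -2.07. GCLM, in contrast, was then above MP2-mock by 0.58 to 0.84 with α2Δ and by 0.79 to 1.17 with α9α2. Under the same centring, 2 of the 3 NQO1 probe sets turned negative, to -0.27 and -0.30 in MP2-α2Δ cells and to -0.59 and -0.58 in MP2-α9α2 cells, while 201468_s_at was still positive, at 0.13 and 0.63. TXNRD1 turned to -0.71 in MP2-α2Δ cells. Of all probe sets 2-fold apart from MP2-mock, 81.7% were higher in MP2-α2Δ cells as deposited, 35.7% after centring and 49.9% after quantile normalization, and 76.9%, 39.7% and 51.2% in MP2-α9α2 cells.

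**Figure D3:**
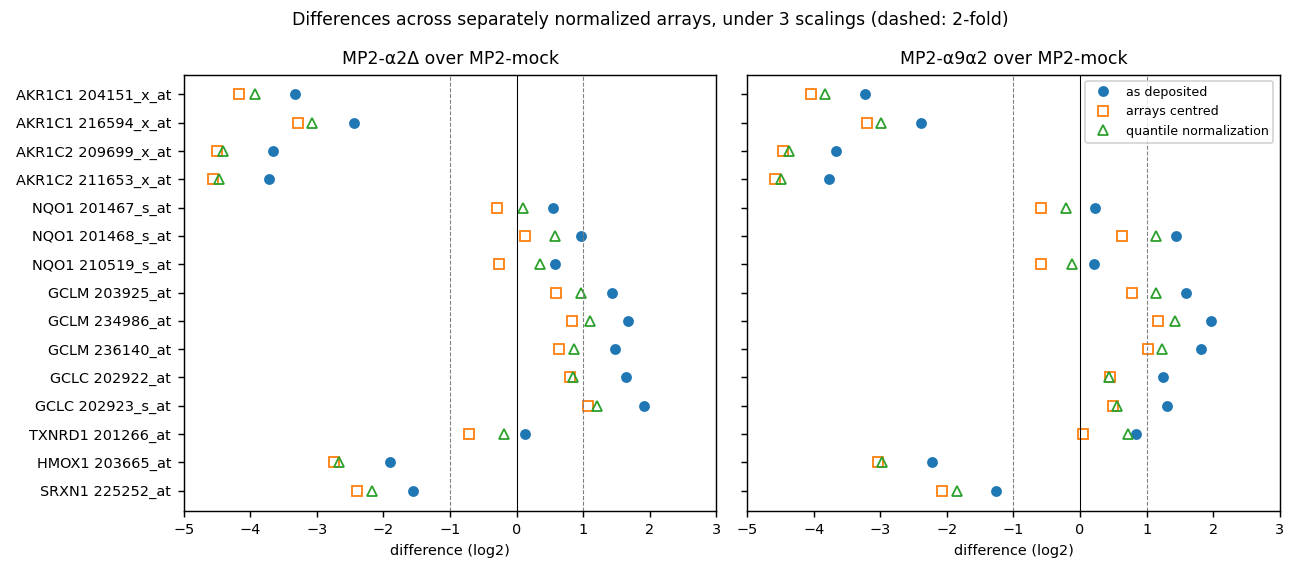
Log2 differences from MP2-mock cells (x axis) of the 15 member probe sets (rows), left for MP2-α2Δ and right for MP2-α9α2, as deposited, with arrays centred and with quantile normalization, dashed lines at 2-fold. AKR1C1, AKR1C2, HMOX1 and SRXN1 stay below -1 under all 3 scalings, while 2 of the 3 NQO1 probe sets change sides of 0 and 201468_s_at stays above it.

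Other NRF2 targets were taken as a list of 34 genes, among them SLC7A11, the cystine transporter, and the quinone and carbonyl reductases CBR1 and CBR3. By the probe set with the highest mean for each gene, 31 were on the array. Of 28 measured, none was 2-fold apart in MP2-α2/TC or MP2-α2/CI over MP2-mock, or for MP2-α2/CI over MP2-α2/TC. Their medians were -0.02, -0.01 and 0.00, beside 0 for all genes. The share of all genes past 2-fold was 0.292% upward and 0.378% downward for MP2-α2/TC over MP2-mock, and 0.262% upward and 0.389% downward for MP2-α2/CI over MP2-mock. For MP2-α2/CI over MP2-α2/TC it was 0.0395% upward and 0.15% downward. The list member furthest below MP2-mock was TRIM16, a ubiquitin ligase gene, which read 7.45 in MP2-α2/CI, 7.59 in MP2-α2/TC and 8.13 in MP2-mock cells.

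Between the constructs, some genes of this list were 2-fold apart by this 1 probe set per gene, and all of those were higher with α2Δ. Of 27 measured genes, 9 were at least 2-fold higher in the cells with α2Δ, beside 10.1% of all genes, and none was lower, beside 4.97%. The median was 0.16, beside 0 for all genes. The largest was PIR, an iron-binding nuclear protein, at 9.02 with α2Δ and 6.26 with α9α2, a log2 difference of 2.76. ABCC3, an efflux transporter of conjugates, read 4.84 and 2.80 in the same order. CBR3 read 10.57 with α2Δ and 8.66 with α9α2. GSTM3, a glutathione transferase, read 11.53 and 9.73. PTGR1, which reduces prostaglandins and alkenals, and CBR1 differed by 1.33 and 1.27. All 6 were higher with α2Δ, where GCLC was higher and GCLM lower by less than 2-fold. Against MP2-mock, across the separate normalization, the list median was 0.52 with α2Δ and 0.13 with α9α2, beside 0.37 and 0.33 for all genes. PIR, ABCC3, CBR3 and GSTM3 differed from MP2-mock by -1.32, -1.77, -1.40 and -1.29 with α9α2. With α2Δ they differed by 1.45, 0.27, 0.50 and 0.50. PTGR1 and CBR1 were above MP2-mock in both, by 1.96 and 1.37 with α2Δ and by 0.63 and 0.11 with α9α2. Other probe sets did not all follow. Counting every probe set, 1 of 5 for ABCC3, 1 of 2 for GSTM3 and 2 of 3 for PTGR1 were 2-fold higher. For SLC7A11, 1 of 3 was at least 2-fold lower with α2Δ, and its brightest probe set differed by -0.80.

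By its probe set with the highest mean, 1 of 3, the transcript of NRF2 differed little among the 3 arrays with a common minimum. NFE2L2 read 11.32 in MP2-α2/CI, 11.27 in MP2-α2/TC, 11.78 in MP2-α2Δ, 11.78 in MP2-α9α2 and 11.27 in MP2-mock cells. KEAP1 read 10.05 in MP2-α2/CI, 10.14 in MP2-α2/TC, 10.72 in MP2-α2Δ, 10.72 in MP2-α9α2 and 10.20 in MP2-mock cells. In both MP2-α2Δ and MP2-α9α2 cells, NFE2L2 stood 0.51 and KEAP1 0.52 above MP2-mock. These differences cross the separate normalization, where the median shifts were 0.53 and 0.54. Transcript levels do not measure the NRF2 protein, which is controlled mainly by degradation. Of 13 measured regulators, none was 2-fold apart among the 3 arrays with a common minimum. Between the constructs none was higher in MP2-α2Δ cells, beside 10.1% of all genes, and 2 were lower, beside 4.97%. The first was GSK3B, a kinase that marks NRF2 for degradation, at 10.23 with α2Δ and 11.33 with α9α2. The second was BACH1, a repressor that competes with NRF2 at AREs, at 9.81 and 10.81, so that it only just reached 2-fold. Not all of their probe sets followed, with 2 of 5 for GSK3B and 1 of 3 for BACH1 at least 2-fold lower. For CUL3, another listed regulator, 1 of 3 was also at least 2-fold lower, but not its probe set with the highest mean. BACH1 read 8.74 in MP2-α2/CI, 8.45 in MP2-α2/TC and 8.28 in MP2-mock cells, and so stood 0.46 above MP2-mock in α2 cells on collagenI.

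**Figure D4:**
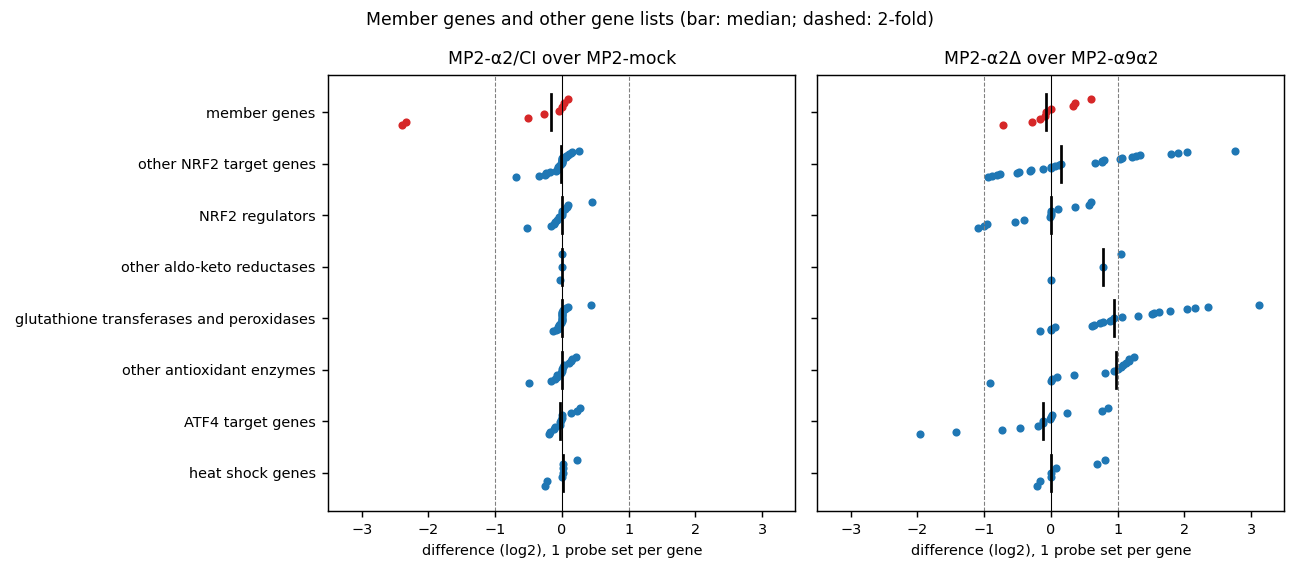
Log2 differences (x axis) of member genes and of 7 other gene lists (rows), 1 point per measured gene by its probe set with the highest mean, in 2 panels (left, MP2-α2/CI over MP2-mock; right, MP2-α2Δ over MP2-α9α2), with bars for medians and dashed lines at 2-fold. In the first comparison AKR1C1 and AKR1C2 are the only points past 2-fold, and in the second glutathione transferases and peroxidases have a median of 0.95.

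Of other aldo-keto reductases, 3 genes were measured, and none was 2-fold apart among the first 3 arrays. Between the constructs, 1 of the 3 was at least 2-fold higher in MP2-α2Δ cells, beside 10.1% of all genes. It was AKR7A2, an aldehyde reductase, at 12.30 against 11.25 in MP2-α9α2 cells. AKR1C4, the hepatic member, read the minimum on every array. Of 22 glutathione transferases and peroxidases, 14 other antioxidant enzymes, 12 ATF4 targets and 7 heat shock genes, none was 2-fold apart in MP2-α2/TC or MP2-α2/CI over MP2-mock or between them. Between the constructs, 10 of 21 glutathione transferases and peroxidases were at least 2-fold higher with α2Δ (median 0.95), and so were 7 of 14 other antioxidant enzymes (median 0.98), beside 10.1% of all genes. Against MP2-mock, the median of the transferases and peroxidases was 0.08 with α2Δ and -0.70 with α9α2, and that of the other antioxidant enzymes 0.28 and -0.78, beside 0.37 and 0.33 for all genes. Among the genes higher with α2Δ were MGST2, a membrane-bound transferase (8.52 with α2Δ and 5.40 with α9α2), GSTZ1, of tyrosine breakdown (9.68 and 7.32), and SOD1, the cytosolic superoxide dismutase (14.52 and 13.34). Of the 13 ATF4 targets measured between the constructs, 2 were at least 2-fold lower in MP2-α2Δ cells, beside 4.97% of all genes. None was higher, beside 10.1%. The 2 were PHGDH, of serine synthesis, at -1.96 and ASNS, asparagine synthetase, at -1.43. No heat shock gene was 2-fold apart.

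The genes beside AKR1C1 and AKR1C2 did not share their difference in MP2-α2/CI cells. In RefSeq gene order on chromosome 10, AKR1C1, AKR1C2 and AKR1C3 follow each other, with AKR1E2 on one side and AKR1C8 and AKR1C4 on the other. Besides AKR1C1 to AKR1C4, 17 protein-coding genes in and beside the cluster were taken, AKR1C8 among them, and 8 were above the floor on all 5 arrays. These 8 lay between -0.17 and 0.14 for MP2-α2/CI over MP2-mock and between -0.22 and 0.12 for MP2-α2/CI over MP2-α2/TC, with none 2-fold apart. Few genes of any kind passed this mark. Over MP2-mock, 0.262% of all genes did so upward and 0.389% downward in MP2-α2/CI cells. Over MP2-α2/TC the shares were 0.0395% and 0.15%. The count of none among 8 therefore does not set the neighbours apart from other genes. AKR1E2, the nearest, another aldo-keto reductase, read 4.94 on all 3 of these arrays and 7.41 in both MP2-α2Δ and MP2-α9α2 cells. Across the separate normalization AKR1E2 was thus higher where AKR1C1 and AKR1C2 were lower. In MP2-α2Δ cells, also on collagenI, 5 of the 8 were 2-fold apart from MP2-mock. They included PFKP at -1.18 and PITRM1 at -1.17, and the highest was 2.47. In MP2-α9α2 cells 4 of the 8 were 2-fold apart, and the 8 lay between -0.19 and 2.58. Of all probe sets, 30.2% were higher and 6.77% lower in MP2-α2Δ cells, and 31.7% and 9.52% in MP2-α9α2 cells.

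**Figure D5:**
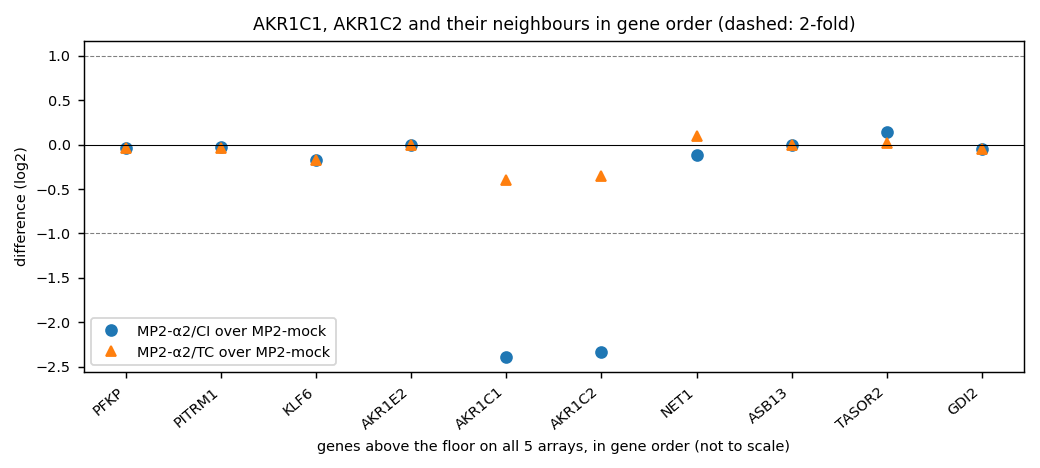
Log2 differences (y axis) of AKR1C1, AKR1C2 and the 8 neighbouring genes above the floor on all 5 arrays, in gene order (x axis, not to scale), for MP2-α2/CI and MP2-α2/TC over MP2-mock cells, dashed lines at 2-fold. The neighbours lie between -0.17 and 0.14, and AKR1C1 and AKR1C2 at -2.39 and -2.34 for MP2-α2/CI.

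Genes with the pattern most like that of the AKR1C genes were sought by the root mean square difference over the 5 arrays, after each gene's own mean was taken off, from the average of the AKR1C1, AKR1C2 and AKR1C3 probe sets with the highest mean. The nearest of 19765 other genes was TSPAN18, a tetraspanin, at 0.371, followed by EFNB2, an ephrin ligand (0.396), FASN, fatty acid synthase (0.414), the antisense gene LBX2-AS1 (0.425) and MAPK8IP1, a JNK scaffold (0.427). FASN read 11.18 in MP2-α2/CI, 11.43 in MP2-α2/TC, 9.93 in MP2-α2Δ, 10.09 in MP2-α9α2 and 11.69 in MP2-mock cells. None of the 5 was 2-fold apart in MP2-α2/CI cells, where TSPAN18 differed from MP2-mock by -0.46 and FASN by -0.51. As AKR1C3 lay at the floor, it flattened the pattern sought. Against the average of the 4 AKR1C probe sets above the floor, a choice made with the values in view, the nearest gene was GIGYF1 at 0.623, with -0.58 for MP2-α2/CI over MP2-mock. By that measure MORC4, at place 4 (0.657), was 2-fold lower than MP2-mock in both α2 populations. It differed by -1.66 in MP2-α2/CI and -1.18 in MP2-α2/TC cells. Across the separate normalization FASN differed from MP2-mock by -1.77 in MP2-α2Δ cells, and TSPAN18 was not above the floor in MP2-α2Δ or MP2-α9α2 cells.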

How the data were processed

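The authors deposited 1 normalized log2 value per probe set for each of 5 arrays. The log base was read from the range of the values, and which arrays were normalized together from their minima. GCRMA and MAS5 are listed in the submitters' processing notes, with neither version nor role. Of 54675 probe sets read, 62 controls were dropped. Platform annotation gave 1 symbol to 41091, several to 1801 and none to 11721, and symbols were updated by gene identifier through RefSeq (GRCh38.p14). Differences were taken after values were raised to the floor of each array, with Python 3.11.15, pandas 2.3.3 and numpy 2.4.6, and the functions were tested on simulated data. No test or p was computed, since each population had 1 array, whose number limits the precision. A probe set entered a comparison where it was above the floor on either array. The member genes and lists were chosen with earlier results of these data known. Genes outside the members were named where at least 2-fold apart within a normalization set, plus the 5 most like AKR1C1 to AKR1C3. Up to 6 per comparison were named for NRF2 targets and regulators (with NFE2L2 and KEAP1 always) and up to 2 for other lists. TRIM16, SLC7A11, CUL3, AKR1C4, AKR1E2, PFKP, PITRM1, SOD1, GIGYF1 and MORC4 were named after their values were seen. Promoter windows came from RefSeq. A planned comparison of the AKR1C proteins was not run.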

Additional observations from a re-analysis of the deposited data

How the results depend on the processing

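Of the 12 counts of member probe sets, none moved by over 1.5 times without a floor or with a floor at 4. With _x_at and _s_at probe sets left out, the counts of lower probe sets were 0 for MP2-α2/CI over MP2-mock and 0 for MP2-α2/CI over MP2-α2/TC, since no AKR1C probe set above the floor was left, and 2 for MP2-α2Δ and 2 for MP2-α9α2 over MP2-mock. With centred arrays, the higher counts over MP2-mock were 1 (MP2-α2Δ) and 2 (MP2-α9α2), and with quantile normalization 2 in MP2-α2Δ cells. At 3-fold they were 3 and 3. At 1.5-fold, 1 was lower for MP2-α2/TC over MP2-mock, and for MP2-α2Δ over MP2-α9α2 1 was higher and 1 lower. With the median of all 5 AKR1C1 probe sets, 3 of them at the floor, the AKR1C1 difference turned to 0.02 (0.018) for MP2-α2/CI over MP2-mock and 0.02 (0.020) over MP2-α2/TC, and was -0.04 for both MP2-α2Δ and MP2-α9α2 over MP2-mock, which are the differences between the floors. No paired analysis was possible because each population had 1 array. Signal limits AKR1C3 and AKR1B10, for which no difference was detectable above the floor.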
